A study of Mus musculus with 2 samples.

Results

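The respiratory chain genes are those whose symbols begin with Nduf, Uqcr, Cox4 to Cox8, Atp5, Sdh, mt-Nd, mt-Co, mt-Atp or mt-Cyt, with pseudogene symbols left out. The rule found 109 of the 28692 genes listed in both count matrices. Of these, 96 are encoded in the nucleus and 13 in the mitochondrial DNA. Their transcripts were counted by 3′ single-cell RNA sequencing in sorted tumour cells of MC38, a mouse colon carcinoma line, from tumours of C57BL/6 albino mice. Pieces of 40 to 100 µm of the dissociated tumours were cultured in collagen in a microfluidic chip until day 6. In 1 culture the medium held aPD-1, an antibody against the inhibitory T cell receptor PD-1 (clone RMP1-14, 10 µg/mL), and in the other a control IgG (clone 2A3, 10 µg/mL). With 1 library per antibody, the differences given are between 2 libraries, with no replicate check and no p-value. Treatment cannot be told apart from culture, sorting or loading.

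The respiratory chain passes electrons from NADH and succinate through complexes I to IV of the inner mitochondrial membrane to oxygen, pumping protons on the way. Complex V, the ATP synthase, uses the proton gradient to make ATP. Complex II is encoded in the nucleus alone, whereas complexes I, III, IV and V are built from subunits of both genomes. In hypoxic cells the factor HIF is known to induce some subunit isoforms, of which Ndufa4l2 is an established example.

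Cells were kept at 5000 or more unique molecular identifiers (UMIs) and a mitochondrial share of 10% or less. That left 3356 cells in aPD-1, whose median depth was 16577 UMIs, and 2198 in IgG, whose median depth was 20663 UMIs. Library totals were 68385785 UMIs for aPD-1 and 52720076 for IgG, and 8 barcodes occurred among the kept cells of both. The aPD-1 matrix lists every possible barcode, whereas the IgG matrix lists called cells. The mitochondrial limit acts on the members themselves, because the 13 mitochondrial members are the only mt- genes in the matrices. It removed 81 aPD-1 barcodes over the UMI floor (2.36%) and 89 IgG barcodes (3.89%). The 10 epithelial markers set against the colon carcinoma label summed to 0.390 counts per 1000000 UMIs of the kept cells (CPM) in aPD-1, against 0.911 CPM in IgG, so the labelled cell type was not borne out by them. The 14 macrophage markers summed to 22.1 CPM in aPD-1 against 57.9 CPM in IgG, the 10 endothelial markers to 20.6 and 58.2 CPM, and the 10 fibroblast markers to 708 and 1030 CPM. In 23 aPD-1 and 73 IgG cells at least 3 macrophage or endothelial markers were found. Of the 13 T, NK and B cell markers, 5 had no UMI in aPD-1 and 5 none in IgG, and no kept cell had 3 of them.

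Transcripts of the mitochondrial members were higher and those of the nuclear members lower in the aPD-1 library. The 13 mitochondrial members summed to 35316 CPM in aPD-1 against 30124 CPM in IgG, a ratio of 1.17 (95% counting interval 1.170 to 1.175). The 96 nuclear members summed to 25167 CPM in aPD-1 against 27857 CPM in IgG, a ratio of 0.903 (0.901 to 0.906). Intervals here and below cover counting error only. Cells were divided into 4 bins by hypoxia genes, cell cycle genes, fibroblast-like genes or UMIs. The nuclear ratio lay between 0.877 and 0.922 in every bin and the mitochondrial ratio between 1.08 and 1.24. The UMI bins were cut within each library and so do not match depth between libraries. Their medians were 10002, 14399, 19109 and 27807 UMIs in aPD-1, against 10305.5, 17533, 23806 and 35047.5 UMIs in IgG. From the lowest to the highest UMI bin the mitochondrial ratio was 1.08, 1.16, 1.18 and 1.18. Without the cells that carried macrophage or endothelial markers the nuclear ratio was 0.902 and the mitochondrial ratio 1.17.

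The size of both differences depends on the scaling. Cytosolic ribosomal protein genes took 38.1% of the UMIs in aPD-1 and 34.4% in IgG. Scaled to the UMIs outside mitochondrial and cytosolic ribosomal protein genes, the mitochondrial ratio was 1.26 and the nuclear ratio 0.970. That scaling shifted the median log2 ratio of all genes by 0.10. Sums of complexes I, II, III, IV and V stayed below 1 under it, at 0.941, 0.985, 0.984, 0.984 and 0.950.

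Of the 109 members, 100 had a mean of at least 10 CPM over both libraries, which were 87 nuclear and all 13 mitochondrial members. A gene was counted as higher in aPD-1 when its IgG level was at most 0.8 of its aPD-1 level, and as lower when its aPD-1 level was at most 0.8 of its IgG level, with the counting interval of the ratio on the same side of 1. By that rule 1 of the 100 members was higher in aPD-1, against 3.9% of all 6967 genes at that level, and 19 were lower, against 17.2% of all genes. Both shares lie near those of all genes and are no result about the respiratory chain. The median log2 ratio was -0.17 for nuclear members, 0.20 for mitochondrial members and -0.10 for all genes. With UMIs outside mitochondrial and ribosomal protein genes as the scale, 102 members reached 10 CPM. Of these 7 were higher, against 8.59% of all genes, and 9 lower, against 9.88%, so these shares too lay near those of all genes. The medians on that scale were -0.06, 0.30 and 0.00. The 7 were Cox7a2l, Cox6a2, Ndufaf4, mt-Atp6, mt-Co1, mt-Co2 and mt-Nd2. At 1.5-fold on the scale of all UMIs, 0 members were higher (0.531% of all genes) and 5 were lower (3.01% of all genes), namely Atp5k, Ndufa3, mt-Nd3, mt-Nd4l and mt-Atp8.

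**Figure D1:**
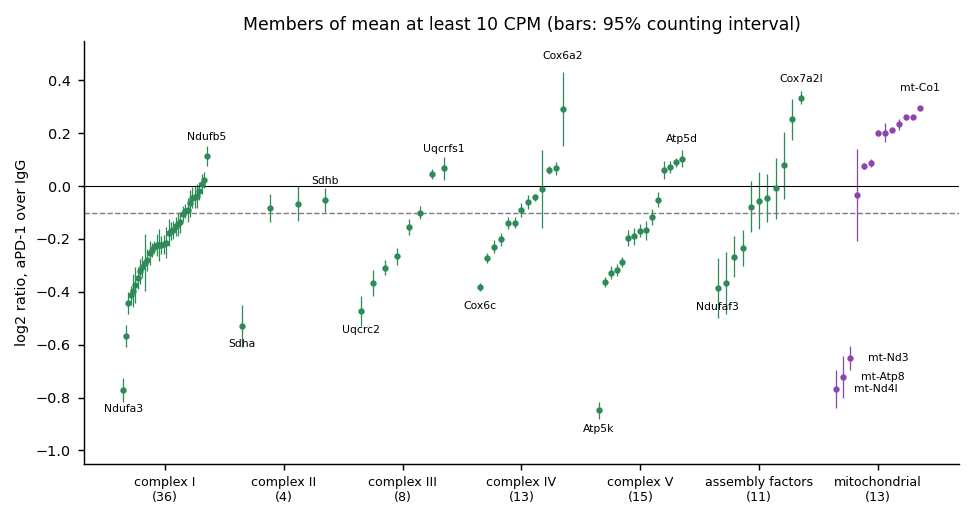
Log2 ratio of aPD-1 over IgG on the vertical axis for the 100 members of at least 10 CPM, ordered within each complex, with 95% counting intervals as bars and the median of all genes, -0.10, as a dashed line. Of the 87 nuclear members 72 (82.8%) lie below 0, beside 67.1% of all genes, with Atp5k and Ndufa3 lowest at -0.85 and -0.77, and mt-Nd3, mt-Atp8 and mt-Nd4l lie apart from the other mitochondrial members at -0.65, -0.72 and -0.77.

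Complex I takes electrons from NADH, and its 36 nuclear members summed to 6521 CPM in aPD-1 against 7441 CPM in IgG, a ratio of 0.876. Of the 36, 33 (91.7%) had a lower level in aPD-1, beside 67.1% of all genes. By that rule 7 (19.4%) were lower, near the 17.2% of all genes, and none was higher. Ndufa13, an accessory subunit and the most abundant, had 483 CPM in aPD-1 against 567 CPM in IgG. The lowest ratio was that of Ndufa3 (chr7:3617373-3620327, GRCm38, plus strand), a small accessory subunit, with 106 CPM in aPD-1 against 182 CPM in IgG. Its ratio was 0.586 (0.567 to 0.605). Ndufb5, an accessory subunit of the membrane arm, had the highest ratio, with 208 CPM in aPD-1 against 193 CPM in IgG (log2 0.11). Both of these extremes are accessory subunits, as are most members of the complex. Ndufa1, an accessory subunit encoded on the X chromosome, had 134 CPM in aPD-1 against 198 CPM in IgG. Ndufv1, which binds NADH, had 66.7 CPM in aPD-1 against 87.8 CPM in IgG. The other 4 past the rule were the accessory subunits Ndufa5, Ndufa9, Ndufc1 and Ndufv3, with log2 ratios of -0.44, -0.37, -0.35 and -0.41. The lowest level of the complex in each library was that of Ndufs1, a core subunit that carries iron-sulphur clusters, with 23.0 CPM in aPD-1 against 28.2 CPM in IgG.

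Complex II, succinate dehydrogenase, belongs both to the chain and to the tricarboxylic acid cycle. Its catalytic flavoprotein Sdha (chr13:74322254-74350280, minus strand) had 38.8 CPM in aPD-1 against 55.9 CPM in IgG. The ratio of 0.694 (0.656 to 0.733) put Sdha alone of the 4 members past the rule. Sdhb, the iron-sulphur subunit and the most abundant, had 146 CPM in aPD-1 against 151 CPM in IgG, and the membrane anchors Sdhc and Sdhd had log2 ratios of -0.07 and -0.08.

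Complex III passes electrons from ubiquinol to cytochrome c, and its 8 members summed to a ratio of 0.917. Both core proteins were past the rule. Uqcrc1 had 110.0 CPM in aPD-1 against 142 CPM in IgG (log2 -0.37), and Uqcrc2 had 80.3 CPM in aPD-1 against 112 CPM in IgG (log2 -0.47). The Rieske iron-sulphur protein Uqcrfs1 had the highest ratio, with 169 CPM in aPD-1 against 161 CPM in IgG (log2 0.07). The small subunit Uqcrq was the most abundant, with 791 CPM in aPD-1 against 767 CPM in IgG.

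Complex IV, cytochrome c oxidase, reduces oxygen, and it held the most abundant nuclear members. Cox8a had 1583 CPM in aPD-1 against 1630.0 CPM in IgG, and Cox4i1 had 1388 CPM in aPD-1 against 1331 CPM in IgG. Each count is of transcript ends, so these levels are per transcript and were not divided by length. Only Cox6c was past the rule, with 1043 CPM in aPD-1 against 1358 CPM in IgG, a ratio of 0.768 (0.759 to 0.776).

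Several subunits of complex IV have tissue-restricted isoforms, and in every pair the common isoform was the more abundant. Cox6a1 had 424 CPM in aPD-1 against 451 CPM in IgG, beside 17.1 CPM in aPD-1 and 14.0 in IgG for Cox6a2, the heart and muscle isoform. The Cox6a2 ratio was the highest of the complex (log2 0.29) and rested on 1051 UMIs in aPD-1 and 691 in IgG. Cox7a2 had 449 CPM in aPD-1 against 526.5 CPM in IgG, beside 1.77 CPM in aPD-1 and 4.03 in IgG for the muscle isoform Cox7a1. Cox4i2, the isoform of lung, was found with 6 UMIs in aPD-1, against 18 UMIs in IgG. Cox6b1 had 428 CPM in aPD-1 against 492 CPM in IgG, whereas of Cox6b2, the testis isoform, aPD-1 had no UMI and IgG had 1. Cox8b and Cox8c had no UMI in either library, which allows up to 0.0488 CPM in aPD-1 and 0.0607 in IgG (3 counts per library). The other low member of the complex, Cox7b2, had 1.86 CPM in aPD-1 against 1.46 CPM in IgG.

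The ATP synthase, complex V, is a rotary enzyme with a catalytic head, a stalk and a ring of c subunits in the membrane. Its 15 nuclear members summed to 6711 CPM in aPD-1 against 7579 CPM in IgG, a ratio of 0.885. Atp5g2, which encodes the c subunit, was the most abundant, with 1015 CPM in aPD-1 against 953 CPM in IgG. The 3 members past the rule, Atp5k, Atp5l and Atp5j2, encode subunits e, g and f of the membrane part. Atp5k (chr5:108433244-108434448, minus strand) had 221 CPM in aPD-1 against 398 CPM in IgG, a ratio of 0.555 (0.543 to 0.568), the lowest of all 100 members. Atp5l had 479.9 CPM in aPD-1 against 602 CPM in IgG, and Atp5j2 had 655 CPM in aPD-1 against 842 CPM in IgG. Atp5d had the highest ratio of the complex, with 309 CPM in aPD-1 against 288 CPM in IgG (log2 0.10). The catalytic subunit Atp5b had 524 CPM in aPD-1 against 654 CPM in IgG.

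The 14 assembly factors help build the complexes without being part of the finished enzymes, except that Cox7a2l stays bound where it joins complexes III and IV into supercomplexes. Cox7a2l (chr17:83501918-83517330, minus strand) was the only member of all complexes past the rule as higher, with 578 CPM in aPD-1 against 458 CPM in IgG, a ratio of 1.26 (1.24 to 1.28). With at most 5% mitochondrial UMIs allowed per cell, it was no longer past the rule. The sum of the assembly factors was 924 CPM in aPD-1 against 831 CPM in IgG, and Cox7a2l made up most of it in each library. Their median log2 ratio was -0.05. Ndufaf3 had 20.2 CPM in aPD-1 against 26.4 CPM in IgG, and Ndufaf7 had 18.7 CPM in aPD-1 against 24.2 CPM in IgG. These 2 complex I factors were past the rule as lower. Ndufaf1, Atp5sl and Atp5s fell short of 10 CPM, between 5.27 and 7.97 CPM in either library.

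**Figure D2:**
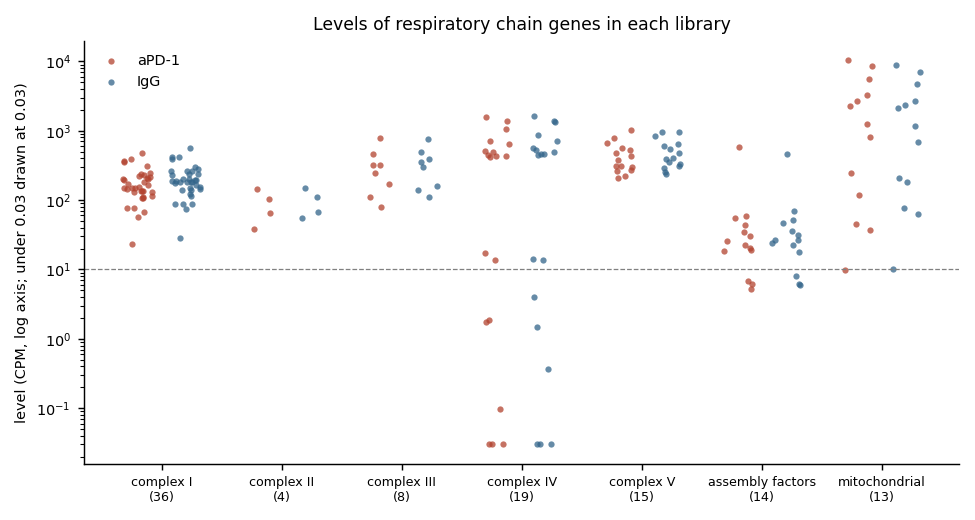
Level of each of the 109 members in CPM on a log axis, aPD-1 left of IgG in each complex, with values under 0.03 CPM drawn at 0.03 and the minimum of 10 CPM as a dashed line. Mitochondrial members range from about the minimum (mt-Nd6, 9.94 CPM in aPD-1 against 10.2 CPM in IgG) to 10475 CPM in aPD-1 against 8747 CPM in IgG (mt-Atp6), and the members of complex IV under the line are tissue-restricted isoforms, with Cox6a2 and Ndufa4l2 just over it.

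Promoters of nuclear respiratory chain genes are known for sites of the factors NRF1, of the ETS family and of YY1. Promoter sequence, taken from RefSeq on GRCm38.p6 over 250 bases before to 50 bases after each start, was at hand for 77 of the 96 nuclear members. The NRF1 motif, GCGC followed by any base and by TGCGC, was found on either strand in 21 of the 77 (27.3%), against 7.17% of the 17492 genes in the table. The ETS motif CCGGAAG was found in 20 (26.0%, against 12.9%) and the YY1 motif AAGATGGC in 9 (11.7%, against 3.57%). The core of the HIF motif, ACGTG, was found in 18 (23.4%, against 23.2%), the share of all genes. None of these motifs contains another, and a match describes letters in the window, not a bound site. The 3 promoters with the NRF1 motif below belong to the member of lowest ratio, to the catalytic subunit of complex II and to a core protein of complex III. All 3 are members past the rule as lower in aPD-1. Of the other nuclear members past it as lower, Ndufa5 also has the motif. Atp5j2, Atp5l, Ndufa1, Ndufa3, Ndufa9, Ndufaf3, Ndufaf7, Ndufc1, Ndufv1 and Ndufv3 have none, and no promoter was at hand for Cox6c and Uqcrc2. Capitals mark the NRF1 matches, of which Sdha has 3 and Uqcrc1 has 2. The windows are chr5:108434350-108434649 (minus strand) for Atp5k, chr13:74350191-74350490 (minus strand) for Sdha and chr9:108936398-108936697 (plus strand) for Uqcrc1, written in the direction of transcription.
Atp5k: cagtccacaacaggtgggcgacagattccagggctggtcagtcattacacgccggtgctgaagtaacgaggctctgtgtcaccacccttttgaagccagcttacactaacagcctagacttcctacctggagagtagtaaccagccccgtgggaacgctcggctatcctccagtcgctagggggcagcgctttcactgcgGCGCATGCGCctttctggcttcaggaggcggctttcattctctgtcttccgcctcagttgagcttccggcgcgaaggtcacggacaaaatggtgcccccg
Sdha: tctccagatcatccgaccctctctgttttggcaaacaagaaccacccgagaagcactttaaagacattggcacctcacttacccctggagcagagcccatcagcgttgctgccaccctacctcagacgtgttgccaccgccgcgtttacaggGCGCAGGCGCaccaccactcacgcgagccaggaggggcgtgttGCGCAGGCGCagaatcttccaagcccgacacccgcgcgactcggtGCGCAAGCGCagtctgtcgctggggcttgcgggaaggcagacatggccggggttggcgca
Uqcrc1: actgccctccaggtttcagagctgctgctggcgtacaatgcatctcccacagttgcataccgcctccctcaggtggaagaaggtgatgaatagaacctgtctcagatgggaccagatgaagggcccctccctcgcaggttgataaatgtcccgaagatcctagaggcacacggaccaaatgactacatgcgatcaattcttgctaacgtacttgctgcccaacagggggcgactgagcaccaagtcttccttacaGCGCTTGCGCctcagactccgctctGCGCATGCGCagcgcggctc

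Within the mitochondrial genome, 12 of the 13 members are transcribed from the plus strand of the reference and mt-Nd6 from the minus strand. The cytochrome c oxidase and ATP synthase genes were the most abundant. In aPD-1 mt-Atp6 had 10475 CPM, mt-Co1 8624 CPM, mt-Co3 5514 CPM and mt-Co2 3235 CPM. In IgG mt-Atp6 had 8747 CPM, mt-Co1 7019 CPM, mt-Co3 4758 CPM and mt-Co2 2702 CPM. All 4 had a higher level in aPD-1, short of the rule, with log2 ratios of 0.26, 0.30, 0.21 and 0.26. The subunits of complex I followed, with mt-Nd1 at 2687 CPM in aPD-1 against 2339 CPM in IgG and mt-Nd4 at 1249 CPM in aPD-1 against 1175 CPM in IgG. Cytochrome b, the only mitochondrial subunit of complex III (mt-Cytb), had 2276 CPM in aPD-1 against 2156 CPM in IgG, a log2 ratio of 0.08. The complex I genes mt-Nd2 and mt-Nd5 had 804 and 243 CPM in aPD-1, against 684 and 211 CPM in IgG. The interval of mt-Nd6 (9.94 CPM in aPD-1, 10.2 CPM in IgG) included a ratio of 1.

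The remaining 3 mitochondrial members went the other way. The complex I genes mt-Nd3 and mt-Nd4l had 117 and 45.0 CPM in aPD-1, against 184 and 76.6 CPM in IgG, ratios of 0.637 (0.617 to 0.657) and 0.587 (0.559 to 0.617). The ATP synthase gene mt-Atp8 had 37.6 CPM in aPD-1 against 62.0 CPM in IgG, a ratio of 0.606 (0.574 to 0.640). In every bin of cells by hypoxia, cell cycle, fibroblast-like genes or UMIs, the sum of these 3 had a ratio between 0.507 and 0.655. Over the same bins the sum of the 9 other members longer than 600 bases had ratios between 1.09 and 1.245. These 3 are the shortest of the 13, with 348 bases for mt-Nd3, 297 for mt-Nd4l and 204 for mt-Atp8.

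In mammalian mitochondria mt-Atp8 and mt-Nd4l share a message each with the gene downstream, mt-Atp6 and mt-Nd4, and overlap it. The sequences of both are shown because each went against the gene with which it shares a message. Capitals mark the bases that mt-Atp8 (chrM:7766-7969, GRCm38, plus strand) shares with mt-Atp6, 43 in all, and that mt-Nd4l (chrM:9877-10173, plus strand) shares with mt-Nd4, 7 in all.
mt-Atp8: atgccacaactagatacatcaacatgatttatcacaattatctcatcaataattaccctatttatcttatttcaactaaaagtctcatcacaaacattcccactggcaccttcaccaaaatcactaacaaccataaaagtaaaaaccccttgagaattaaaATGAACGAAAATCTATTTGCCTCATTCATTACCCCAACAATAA
mt-Nd4l: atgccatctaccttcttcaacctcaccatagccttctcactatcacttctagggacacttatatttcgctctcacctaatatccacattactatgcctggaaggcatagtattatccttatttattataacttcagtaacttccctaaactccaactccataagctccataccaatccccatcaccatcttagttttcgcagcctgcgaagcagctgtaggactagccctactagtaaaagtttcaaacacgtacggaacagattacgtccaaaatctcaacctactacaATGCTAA

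Short transcripts outside the mitochondrial genome were lower in aPD-1 as well. Over all genes of at least 10 CPM with an annotated length, 13 had a median transcript length under 400 bases, a bound chosen after the values were seen. All 13 had a lower level in aPD-1, with a median log2 ratio of -0.65, and 11 were past the rule. They were mt-Nd3, mt-Nd4l, mt-Atp8, the nuclear members Atp5k and Ndufa6, and 8 genes outside the respiratory chain set. The 8 were Usmg5, an accessory subunit of the ATP synthase, and the ribosomal protein genes Rps21, Rps27, Rps27rt, Rps28, Rps29, Rpl36 and Rpl38. Usmg5 had 217 CPM in aPD-1 against 382 CPM in IgG, close to Atp5k. Ndufa6 and Rpl36 had the smallest differences of the 13, with log2 ratios of -0.17 and -0.10. The 122 genes of 400 to 600 bases had a median of -0.09, beside -0.10 for all genes, although Ndufa3 and Ndufa1, at 433 and 419 bases, also lie at -0.77 and -0.57. Across the 6873 genes with a length, Spearman's rho of the log2 ratio with length was 0.06. The part of transcript length in these differences was not tested.

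**Figure D3:**
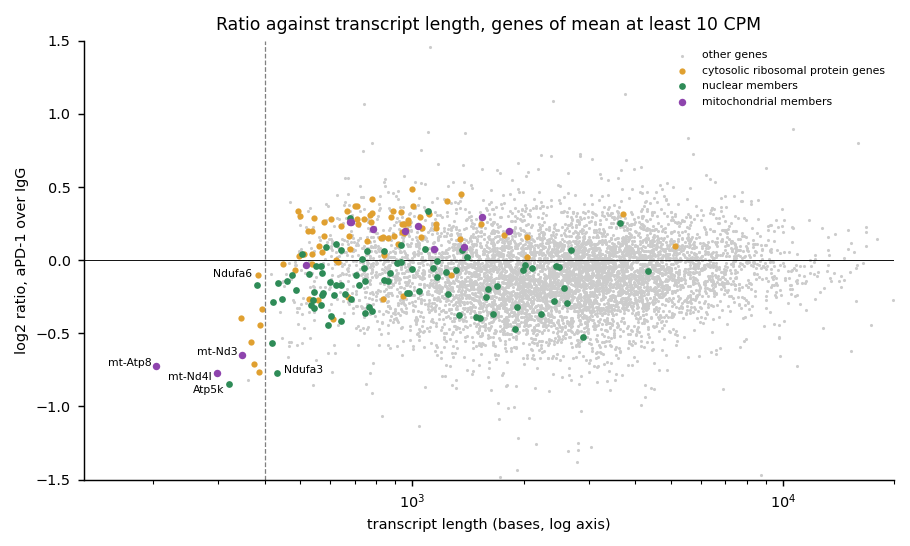
Log2 ratio of aPD-1 over IgG against transcript length in bases on a log axis, for genes of at least 10 CPM, with cytosolic ribosomal protein genes, nuclear members and mitochondrial members coloured; the dashed line marks 400 bases, and 9 genes beyond the axes and 94 without a length are not drawn. All 13 genes left of the line lie below 0, whereas genes right of it lie on both sides.

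Across all cells of a library, the nuclear and mitochondrial shares were nearly uncorrelated. With each cell thinned to 5000 UMIs, the nuclear members held a mean of 123 UMIs per cell in aPD-1 and 135 in IgG, and the mitochondrial members 190.0 in aPD-1 and 166 in IgG. The 95th percentile of cells had 2.05 times the nuclear UMIs of the 5th in aPD-1 and 1.98 times in IgG. For the mitochondrial members the same ratio was 4.23 in aPD-1 and 5.53 in IgG, so the mitochondrial sum was the more variable of the pair. Spearman's rho between the nuclear share of non-mitochondrial UMIs and the mitochondrial share was 0.015 over the 3356 aPD-1 cells and 0.046 over the 2198 IgG cells. Over 5 bins of cells by mitochondrial share, the median nuclear share lay between 2.47 and 2.55% in aPD-1 and between 2.67 and 2.83% in IgG. Computed within each of the 4 bins of UMIs per cell, rho had a median over the bins of 0.117 in aPD-1 and 0.142 in IgG. All of these correlations are too weak to count as a finding, and the sign of those over all cells depends on the settings.

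**Figure D4:**
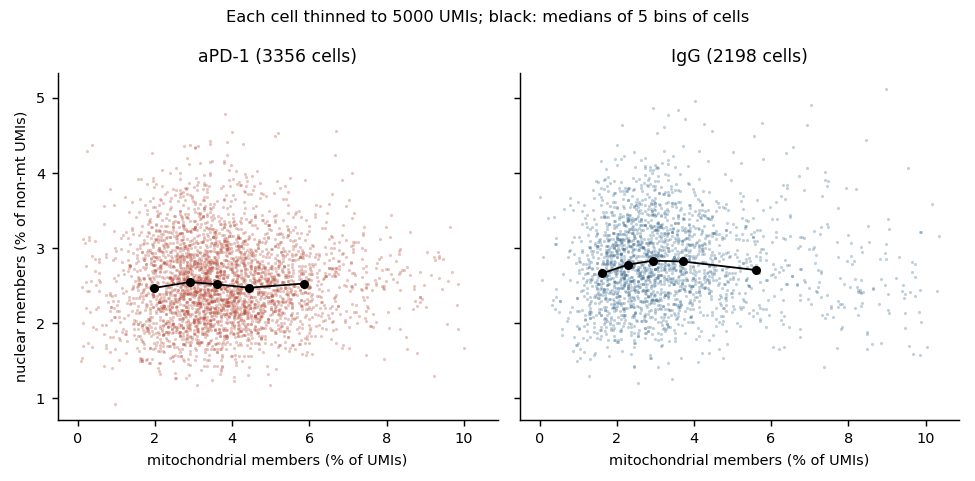
Nuclear members as a percent of non-mitochondrial UMIs against mitochondrial members as a percent of UMIs, one dot per cell thinned to 5000 UMIs, aPD-1 at left and IgG at right, with black points for the medians of 5 bins of cells. The black line is nearly flat in both panels, at 2.47 to 2.55% in aPD-1 and 2.67 to 2.83% in IgG.

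Nuclear members of complexes I, III, IV and V varied together more, and so did the mitochondrial members. Cell by cell, nuclear members of complexes I and V had a rho of 0.503 in aPD-1 and 0.486 in IgG, those of complexes I and IV 0.479 and 0.442, and those of complexes IV and V 0.497 and 0.490. Complex III had a rho of 0.292 to 0.368 with complexes I, IV and V in aPD-1 and of 0.330 to 0.390 in IgG. With complex II, which has 4 members and few UMIs, rho was at most 0.203 in aPD-1 and 0.179 in IgG. The assembly factors, of which Cox7a2l is the most abundant, had a rho of -0.168 to -0.047 with complexes I to V in aPD-1 and of -0.080 to -0.0038 in IgG. The 3 mitochondrial cytochrome c oxidase genes and the other mitochondrial members had a rho of 0.746 in aPD-1 and 0.771 in IgG. These are descriptions over cells of 1 library each, which share depth as a source. The nuclear share had a rho of 0.229 with UMIs per cell in aPD-1 and 0.260 in IgG, and the mitochondrial share -0.367 and -0.335.

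Cells were next ordered by the summed UMIs of 18 hypoxia genes, none of them a respiratory chain gene, and divided into 4 bins of cells over both libraries together. The bins are ranges of a continuous score and not cell types, and 9.74% of aPD-1 and 10.1% of IgG cells lay within 10% of the bound between the upper bins. In the highest bin the nuclear members summed to 22455 CPM in aPD-1, against 26909 CPM in the lowest bin, and in IgG to 25590 CPM against 29842 CPM. By the same rule in both libraries, 29 of the 87 nuclear members (33.3%) were lower in the highest bin, against 20.6% of all genes, and 5 were higher, against 19.6% of all genes. Cells of the highest bin also had fewer UMIs, with a median of 13872.5 against 20326.5 in aPD-1 and 19723 against 24108 in IgG, and fewer cell cycle UMIs. The nuclear sum was lower in the highest hypoxia bin within all 8 combinations of library and cell cycle bin, by 0.11 to 0.25 on the log2 scale.

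The clearest pair was Ndufa4 and Ndufa4l2, of which Ndufa4 belongs to complex IV and Ndufa4l2 is its hypoxia-induced paralogue. Ndufa4l2 (chr10:127514967-127517154, plus strand) had 13.7 CPM in aPD-1 against 13.9 CPM in IgG over all cells. In aPD-1 it had 44.0 CPM in the highest hypoxia bin against 1.29 CPM in the lowest, a ratio of 34.1 (22.9 to 53.2). In IgG it had 36.9 CPM in the highest bin against 2.15 CPM in the lowest, a ratio of 17.2 (11.8 to 26.0). Ndufa4 had 359 CPM in the highest bin against 619 CPM in the lowest in aPD-1, and 427 against 676 CPM in IgG. The paralogues thus moved in opposite directions in both libraries, and within all 8 combinations of library and cell cycle bin. After thinning, 11.7% of aPD-1 cells and 9.52% of IgG cells of the highest bin had an Ndufa4l2 UMI, against 1.13 and 2.00% of the lowest. Unthinned the shares of the highest bin were 17.3% in aPD-1 and 17.5% in IgG. Of the cells with macrophage or endothelial markers, with medians of 20696 UMIs in aPD-1 and 22755 in IgG, 0 of 23 aPD-1 cells and 0 of 73 IgG cells had one after thinning, which allows up to 13.0 and 4.11% of cells with a UMI at that depth. Unthinned, 0 of the 23 aPD-1 cells and 2 of the 73 IgG cells (2.74%) had one.

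Besides Ndufa4l2, the nuclear members higher in the highest hypoxia bin of both libraries were Ndufv3, Cox7a2l, Cox6a2 and Ndufa6. Ndufv3, an accessory subunit of complex I, had 289 against 138 CPM in aPD-1 and 393 against 168 CPM in IgG (highest against lowest bin), a log2 ratio of 1.07 in aPD-1 and 1.22 in IgG. Cox7a2l had log2 ratios of 0.62 in aPD-1 and 0.60 in IgG, and Ndufa6 0.56 and 0.49. These 3 were higher within all 8 combinations of library and cell cycle bin, and Cox6a2 in 6 of the 8. After thinning, 9.61% of aPD-1 cells of the highest bin had a Cox6a2 UMI, against 5.29% of the lowest. In IgG the shares were 6.00% and 6.19%, and these bins held only 170 and 158 Cox6a2 UMIs. The promoter of Ndufv3 (RefSeq, GRCm38.p6, chr17:31519865-31520164, plus strand) holds 1 match of the HIF core ACGTG, shown in capitals, a motif found for 23.2% of the genes in the table. The promoters of Cox7a2l and Ndufa6 hold no match, and none was at hand for Ndufa4l2 and Cox6a2. Among the 3 members lowest by hypoxia bin, Atp5g1 has 3 matches, and Uqcr10 and Ndufaf2 have none. A relation of the match to the direction by hypoxia bin was not tested.
Ndufv3: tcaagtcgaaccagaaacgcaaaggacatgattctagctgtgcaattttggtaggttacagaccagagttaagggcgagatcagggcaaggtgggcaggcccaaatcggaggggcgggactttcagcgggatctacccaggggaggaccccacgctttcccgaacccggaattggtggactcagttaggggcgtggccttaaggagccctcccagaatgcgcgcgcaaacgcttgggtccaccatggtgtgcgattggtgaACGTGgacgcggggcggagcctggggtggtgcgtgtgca

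At the low end stood members of complexes III, IV and V and an assembly factor of complex I. Atp5g1, a gene of the c subunit, had 367 CPM in the highest hypoxia bin against 708 CPM in the lowest in aPD-1, and 380.3 against 713 CPM in IgG, log2 ratios of -0.95 and -0.91. Uqcr10, a small subunit of complex III, had log2 ratios of -0.80 in aPD-1 and -0.73 in IgG, and the complex I assembly factor Ndufaf2 had -0.73 and -0.80. Atp5g1 and Uqcr10 were lower within all 8 combinations of library and cell cycle bin and Ndufaf2 in 7. The other isoform genes of the c subunit were not uniform: Atp5g3 had log2 ratios of -0.60 in aPD-1 and -0.55 in IgG, whereas Atp5g2 was not counted in either direction in both libraries.

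The mitochondrial members split by gene rather than as a block. mt-Co1 had 10109 CPM in the highest hypoxia bin against 7421 CPM in the lowest in aPD-1, and 8090 against 5863 CPM in IgG. mt-Nd1 had 2073 against 3077 CPM in aPD-1 and 1754 against 2703 CPM in IgG. Both directions held within all 8 combinations of library and cell cycle bin. mt-Nd4l was also lower, with log2 ratios of -0.39 in aPD-1 and -0.36 in IgG, and within 7 of the 8 combinations. The other 10 members were not counted in the same direction in both libraries. Of these, mt-Nd3 was lower and mt-Nd6, with few UMIs, higher within all 8 combinations, and the rest went both ways. The 13 together had sums that were higher in 4 and lower in 4 of the 8 combinations.

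**Figure D5:**
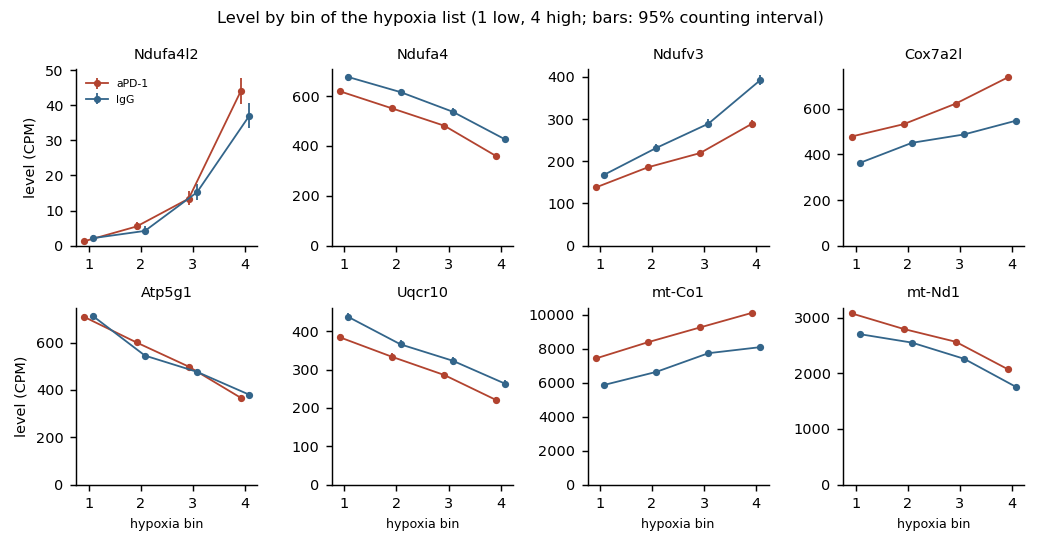
Level in CPM by bin of cells in the summed hypoxia genes, 1 lowest and 4 highest, for 8 members, aPD-1 in red and IgG in blue, with 95% counting intervals as bars; each vertical axis starts at 0. Ndufa4l2, Ndufv3, Cox7a2l and mt-Co1 climb over the bins in both libraries, and Ndufa4, Atp5g1, Uqcr10 and mt-Nd1 decline.

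Ordered instead by 18 S-phase and 19 G2/M genes, 31 of the 87 nuclear members were higher in the highest bin than in the lowest in both libraries, against 27.9% of all genes, and 5 were lower, against 17.7% of all genes. The 5 were Ndufa4l2, Cox6a2, Ndufv3, Cox7a2l and Ndufa6, the same nuclear members that were higher in the highest hypoxia bin. The hypoxia and cell cycle scores run against each other, with median hypoxia UMIs of 10.4 per 10000 in the highest cycle bin and 22.0 in the lowest in aPD-1, and 10.5 and 20.6 in IgG. The largest ratios over both libraries were those of Ndufaf2 and Uqcrc1. Ndufaf2 had 74.6 CPM in the highest cycle bin against 34.8 CPM in the lowest in aPD-1, and 87.1 against 46.8 CPM in IgG. Uqcrc1 had 153 against 75.6 CPM in aPD-1 and 177 against 114 CPM in IgG. Both were higher in the highest cycle bin within all 8 combinations of library and hypoxia bin. Atp5b, the catalytic subunit of the ATP synthase, followed the cycle score in all 8 as well, with log2 ratios between 0.64 and 1.05.

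Other genes of the pathway came from lists outside the member rule. Counts are by the same rule, beside 3.9% higher and 17.2% lower of all genes and a median log2 ratio of -0.10. Of 18 genes of the tricarboxylic acid cycle 5 were lower and none higher (median log2 -0.26), with Fh1, fumarate hydratase, at 57.3 CPM in aPD-1 against 79.9 CPM in IgG and Ogdh, of the oxoglutarate dehydrogenase complex, at 52.1 and 44.6 CPM. Of 75 mitochondrial ribosomal protein genes, which translate the mitochondrial members, 1 was higher and 3 lower (median 0.00). Mrpl42 was the highest, with 170.3 CPM in aPD-1 against 129 CPM in IgG, and Mrps31 the lowest, with 20.4 and 27.3 CPM. Of 15 genes of mitochondrial DNA transcription and maintenance 2 were lower (median -0.18). The RNA-binding protein Slirp had 179 CPM in aPD-1 against 248 CPM in IgG, and Polg, the mitochondrial DNA polymerase, 22.9 and 18.7 CPM. Of 10 nuclear regulators (median -0.22) 1 was lower, Nfe2l2, a regulator of the oxidative stress response, at 35.5 CPM in aPD-1 against 49.6 CPM in IgG, and Pprc1 had the highest ratio of the list (19.3 and 18.0 CPM).

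The remaining lists, of 6 to 20 genes, held none past the rule as higher. Of 17 complex IV assembly genes (median log2 -0.08) 3 were lower, Pet100 with 30.6 CPM in aPD-1 against 57.2 CPM in IgG, Cox20 and Cox17, and Cox14 had the highest ratio (229 and 206 CPM). Of 6 further complex I assembly genes (median -0.25) Lyrm2 (19.1 CPM in aPD-1, 28.7 CPM in IgG) and Tmem70 were lower, and Ecsit had the highest ratio (17.1 and 17.6 CPM). Of 7 genes of complex III assembly, cytochrome c1 and cytochrome c (median 0.00) none was past the rule, between Bcs1l (11.9 and 13.5 CPM) and Ttc19 (51.0 and 42.2 CPM). Of 6 further genes of the ATP synthase (median -0.32) 3 were lower, Usmg5, 2010107E04Rik and Tmem70, and Atpaf2 had the highest ratio (19.1 and 17.6 CPM). Tmem70 stood in both lists. Of 6 coenzyme Q genes (median -0.12) only Coq6 was lower (12.5 CPM in aPD-1, 16.0 CPM in IgG), and Coq2 had the highest ratio (20.1 and 18.4 CPM). Of 20 genes of protein import and carriers (median -0.10) Timm44 (60.0 CPM in aPD-1, 78.7 CPM in IgG) and Dnm1l were lower, and Tomm20, an import receptor, had the highest ratio (1063 and 866 CPM).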

How the data were processed

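The authors deposited raw UMI counts for each gene in each barcode, which were not normalised. Per the file headers they come from Cell Ranger 3.0.2. The submitters' processing notes also name the mouse build mm10 and Seurat 2.1.0. The annotation used, and how reads that match several genes were treated, is not stated there, so members with near-identical copies, such as mitochondrial inserts in the nuclear genome, are uncertain to that extent.

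UMIs were summed per library over cells of at least 5000 UMIs and at most 10% mitochondrial UMIs and scaled to CPM. Doublets were not called, and the 5% of cells highest in UMIs were left out as an alternative. Ratios carry exact conditional binomial 95% intervals, levels exact Poisson ones and shares of cells exact Clopper-Pearson ones. Correlations across cells used 5000 UMIs per cell drawn without replacement. Genes were called at a mean of 10 CPM or more where either library's level was at most 0.8 of the other's. On simulated counts at the depths of aPD-1 over IgG over 6967 genes, all 50 genes at 1.5-fold and all 50 at 2-fold were counted, and 0 of 6774 unchanged ones. The simulated counts held counting error only, without variation between cells, cultures or libraries, and no fold near the bound of the rule. They check the arithmetic of the rule and cannot give its rate of false calls between unreplicated libraries. Lengths and coordinates came from GENCODE M21 (GRCm38, the assembly also called mm10), and promoters from RefSeq (GRCm38.p6). Python 3.11.15, numpy 2.4.6, scipy 1.17.1 and pandas 2.3.3 were used.

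The members, the gene lists and the tests were chosen with earlier results of these data known. Named were all mitochondrial members, the most abundant and the extreme members of each complex, the isoform pairs, the members past the call rule, the 3 highest and 3 lowest by hypoxia bin, and the extremes of each list. Ndufs1, Ndufaf1, Ndufaf4, Atp5s, Atp5sl, Atp5g3, Ndufa6, Usmg5, Cox7b2, Cox8c and the short ribosomal protein genes were named after their values were seen. Of the listed symbols, Coa1, Dmac1, Dmac2, Dmac2l, Twnk, Fastkd4, Coq8a and Coq8b were not matched. Alternatives to the cell filters, the scaling, the call rule and the cells kept were computed for the nuclear and mitochondrial sums, the counts of members past the call rule between the libraries, and the correlation of nuclear with mitochondrial shares, but not for the counts by hypoxia or cycle bin, the lists or the correlations between complexes.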

Additional observations from a re-analysis of the deposited data

Results flagged for a closer look

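Of the barcodes outside the kept cells, only those over the mitochondrial limit at 1000 or more UMIs and those under 100 UMIs were measured. Each of these classes carried mitochondrial members at a higher share than the kept cells, which held 3.53% in aPD-1 and 3.01% in IgG. Barcodes of at least 5000 UMIs removed by the mitochondrial limit held 14.0% of UMIs from mitochondrial members in aPD-1 (81 barcodes) and 13.0% in IgG (89 barcodes). Barcodes of 1000 to 5000 UMIs over the limit held 43.8% in aPD-1 (285 barcodes) and 62.9% in IgG (720 barcodes). The limit itself sets that these shares lie above 10%. Barcodes under 100 UMIs, which only the aPD-1 matrix lists, held 6.02% over 515790 barcodes and 4234674 UMIs. In these barcodes nuclear members held 2.96% of the non-mitochondrial UMIs, beside 2.61% in the kept aPD-1 cells. The part of free RNA in the kept cells was not tested.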

How the results depend on the processing

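The nuclear sum stayed below and the mitochondrial sum above a ratio of 1 under all 14 alternatives run on each. Against the reported 1.17, the mitochondrial ratio was 1.26 with UMIs outside mitochondrial and ribosomal protein genes and 1.26 with median-of-ratios size factors. It was 1.16 at a mitochondrial limit of 5%, 1.15 at 20%, 1.15 without a limit, 1.17 with a floor of 10000 UMIs and 1.14 with every cell weighted equally. It was 1.17 without cells carrying other cell types' markers, 1.18 without the 10% of cells highest in Gsn, Lbp, Dpt, Dcn and Col3a1, 1.18 at an equal mix of hypoxia bins and 1.18 without transcripts under 400 bases, an alternative chosen after seeing the data. Against 0.903, the nuclear ratio was 0.970 and 0.969 under the other scalings, 0.906 at a limit of 5%, 0.900 at an equal mix of hypoxia bins, 0.900 without the 5% of cells highest in UMIs and 0.909 without transcripts under 400 bases. The 1 higher and 19 lower members became 7 and 9 with either other scaling, 0 and 5 at 1.5-fold, and 0 higher at a limit of 5%. The correlation of nuclear with mitochondrial shares, 0.015 in aPD-1 and 0.046 in IgG, was -0.056 and -0.030 with the nuclear share of all UMIs and -0.0085 and -0.014 outside mitochondrial and ribosomal protein genes. It was -0.0055 and -0.0021 at a limit of 20%, and as a median over the bins of UMIs 0.117 and 0.142. In aPD-1 it was -0.0049 at a limit of 5% and -0.013 with a floor of 10000 UMIs. The cause was not tested. No paired analysis was possible because each antibody has 1 library, and for the same reason no replicate could be left out. The counting intervals of mt-Nd6, Ndufa4l2 and Cox6a2, with few UMIs, are the widest on the log2 scale among the members of at least 10 CPM. Under the other scalings 53 of 89 and 52 of 87 nuclear members lay below a ratio of 1. All genes lay about evenly on both sides of 1 there, with median log2 ratios of -0.0003 and 0.0001. On the scale of all UMIs 72 of 87 nuclear members lay below 1, beside 67.1% of all genes. The median log2 ratio of nuclear members lay below that of all genes on each scale. It was -0.17 against -0.10 with all UMIs, -0.064 against -0.0003 outside mitochondrial and ribosomal protein genes, and -0.065 against 0.0001 with size factors.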

Other observations

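Glycolysis and cytosolic ribosomal protein genes were also measured, with no test against the respiratory chain genes. Of 15 glycolysis genes of at least 10 CPM, 6 were lower in aPD-1 and none higher by the same rule (median log2 -0.26), beside 17.2% and 3.9% of all genes. The 6 were Hk2, Ldhb, Pkm, Pgk1, Pfkl and Eno1, and Hk2, which phosphorylates glucose, had 138 CPM in aPD-1 against 197 CPM in IgG. Hk1 had the highest ratio of the list, with 26.3 CPM in aPD-1 against 25.7 CPM in IgG. Of 82 cytosolic ribosomal protein genes 12 were higher and 7 lower (median log2 0.18). Rps2 was the highest, with 10012 CPM in aPD-1 against 7153 CPM in IgG, and Rps28 the lowest, with 2459 CPM in aPD-1 against 4176 CPM in IgG. Of the 7 lower ones 6 were among the genes under 400 bases. The 7th, Rpl39, had 2755 CPM in aPD-1 against 3639 CPM in IgG.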
